A study of Mus musculus with 18 samples.

Results

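The immediate-early response genes Fos, Fosb, Jun, Junb, Jund, Egr1, Atf3, Ier2, Klf6 and Myc were examined in mouse liver. They were picked by symbol from the deposited expression table, and all 10 were present among its 19057 genes. Immediate-early genes are switched on within minutes of a stimulus such as a growth factor, a cytokine, a hormone or cell stress, by transcription factors that are already in the cell and need no new protein synthesis. Their products are mostly transcription factors themselves. FOS and JUN proteins pair to form AP-1, EGR1 and KLF6 bind GC-rich DNA, and MYC pairs with MAX to drive genes for growth and ribosome production. In liver the set is best known from the first phase of regeneration after hepatectomy, from injury and from the acute-phase response.

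Liver RNA was sequenced from 6 groups of ICR mice at 10 weeks of age, with 3 libraries each, 18 in all. Con mice were controls on a regular diet with saline, and A10 mice received alginate oligosaccharide (AOS) at 10 mg/kg. HS mice were given a high-fat diet and streptozotocin (STZ), which kills pancreatic beta cells. The diet started at 3 weeks of age and STZ was injected at 5 weeks, at 85 mg/kg. HS+A10 mice had both HS and AOS at 10 mg/kg. A10-FMT and Con-FMT mice were HS mice that also received gut microbiota (FMT) between 5 and 7 weeks, from donors dosed with AOS at 10 mg/kg or from control donors. The donors' small-intestinal content was pooled before transfer, so the recipients of 1 group share a source. The A10 and HS+A10 groups are known from the sample labels alone. Beyond the labels nothing says which libraries came from separate animals, so p-values measure the spread between these libraries.

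Expression was given as RPKM, read counts scaled to transcript length and to the mapped reads of the library. Hepatocyte marker genes were detected in every library, where 10 of them summed to between 5.005% and 8.239% of all RPKM. Relative depth, judged from the steps between low values, lay between 0.954 and 1.06 of the mean library, and the number of reads is unknown. Several libraries stood apart. In A10-FMT, replicate 3 was the highest of its group for 8 of the 10 members and replicate 2 the lowest for all 10, although replicate 3 was the highest in only 14.7% of the 10204 genes tested. In Con-FMT, replicate 3 held pancreatic acinar markers at 2.51% of its summed RPKM, against at most 0.00672% in any other library. In Con, replicate 3 lay between the other 2 libraries for 98.6% of the 140 genes on which these differed by over 1 on the log2 scale, and in A10 it did so for 96.3% of 135 genes, against 54.9% to 74.4% for the libraries of the other 4 groups. Counts of called members without Con replicate 3 and A10 replicate 3 are given where they differ.

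The promoters of 7 of the 10 members were matched to RefSeq (GRCm38.p6). They are shown here because AP-1 and immediate-early genes are classically controlled from short elements just upstream of the start. Each line is 1 stretch of 100 bases, from 120 to 21 bases before the RefSeq start, read 5′ to 3′ on the gene's strand, with motif matches in capitals. The letters searched on both strands were TGACG, the core of the cyclic AMP response element (CRE), the CCAAT box, the TATA box spelled TATAAA, and the E-box spelled CACGTG. Fos lies at chr12:85473770-85473869 (plus strand), Fosb at chr7:19310066-19310165 (minus), Junb at chr8:84978769-84978868 (minus) and Jun at chr4:95052243-95052342 (minus).
Fos: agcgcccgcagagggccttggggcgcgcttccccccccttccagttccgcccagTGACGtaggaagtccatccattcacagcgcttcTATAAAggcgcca
Fosb: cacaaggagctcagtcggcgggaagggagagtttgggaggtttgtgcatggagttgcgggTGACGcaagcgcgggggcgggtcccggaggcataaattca
Junb: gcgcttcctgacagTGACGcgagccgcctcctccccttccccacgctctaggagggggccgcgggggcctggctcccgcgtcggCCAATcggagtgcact
Jun: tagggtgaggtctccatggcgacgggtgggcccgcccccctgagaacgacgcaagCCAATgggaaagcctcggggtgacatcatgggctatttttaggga

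Within 250 bases upstream of the start, the CRE core TGACG was found in 4 of the 7 matched members, Fos, Fosb, Junb and Atf3, and in 17.8% of 32851 promoters. In Fos it began 66 and 129 bases before the start, in Fosb 60 and in Junb 106. The RefSeq start used for Jund, chr8:70697739, lies upstream of its GENCODE gene start at 70698949. The Jund window is thus not next to the GENCODE start, and sequence there was not searched. CCAAT was found in Jun, Junb and Klf6, against 33.8% of all promoters. TATAAA was found in Fos alone among the members, against 12.4%, and CACGTG in Klf6 alone, against 6.02%. The full CRE TGACGTCA (1.55% of all promoters), the AP-1 site TGANTCA (6.75%) and the CArG box bound by SRF (1.47%) had no exact match in the 7 windows. Near matches, such as tgacatca in the Jun line above, were not counted, and nothing beyond 250 bases was searched. Egr1, Ier2 and Myc had no window. The search therefore cannot show that a member lacks such an element.

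Junb (chr8:84974484-84978718), a single-exon gene for a JUN protein, was highest in Con-FMT livers, where it was at 35.5, 63.9 and 116 RPKM in replicates 1 to 3. In A10-FMT livers it was at 12.9, 6.87 and 26.7 RPKM, and in HS livers at 9.05, 7.70 and 7.62 RPKM. Every Con-FMT library was thus above every other library of the series, with A10-FMT replicate 3 the next highest. The 9 libraries of Con, A10 and HS+A10 lay between 7.70 and 11.6 RPKM, and the ranges of neighbouring groups in the order of means overlapped from HS up to A10-FMT.

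Fos (chr12:85473890-85477273), the founding partner of JUN in AP-1, was low in livers without microbiota transfer. It was at 0.800, 1.83 and 1.72 RPKM in Con, at 0.630, 0.520 and 0.430 RPKM in A10, at 0.640, 1.07 and 0.820 RPKM in HS and at 0.650, 0.500 and 0.310 RPKM in HS+A10. In Con-FMT it was at 5.51, 4.22 and 3.68 RPKM, and in A10-FMT at 2.83, 0.910 and 11.1 RPKM. The 3 Con-FMT libraries were above all 12 libraries without transfer, whereas the A10-FMT group spanned from within that range to the highest value of the series. Fosb (chr7:19302696-19310051), a close relative of Fos, stayed at or below 0.150 RPKM in those 12 libraries and was listed at 0 in 2 of them. It was at 1.13, 1.04 and 0.160 RPKM in Con-FMT and at 0.330, 0.170 and 0.600 RPKM in A10-FMT. With a mean of 0.225 RPKM it was below the minimum of 1 RPKM set for the test, and the other 9 members passed.

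Jun (chr4:95049034-95052222), the partner of FOS and also a single-exon gene, was on average higher in HS and both recipient groups than in the other 3 groups, though A10-FMT replicates 1 and 2 were below every HS library. It was at 10.1, 19.8 and 8.75 RPKM in HS, at 14.8, 9.67 and 17.7 RPKM in Con-FMT and at 6.97, 4.75 and 28.2 RPKM in A10-FMT. HS+A10 livers held 3.95, 4.09 and 5.11 RPKM, below every HS library. Con lay between 5.10 and 9.21 RPKM and A10 between 4.11 and 5.61 RPKM. Jund (chr8:70698949-70700616), the JUN protein made steadily in resting cells, had the highest mean of the members at 22.2 RPKM and the smallest ratio of highest to lowest library, 2.44, with levels from 15.8 to 38.7 RPKM. Its Con-FMT libraries, at 28.8, 38.7 and 27.2 RPKM, were above every other library, and its HS+A10 libraries, at 16.9, 17.7 and 16.7 RPKM, were below every library of Con, A10 and HS.

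Atf3 (chr1:191170296-191218039) encodes a stress-induced factor of the ATF family that pairs with JUN. It was at 9.39, 8.28 and 2.38 RPKM in Con-FMT and at 0.670, 0.400 and 4.09 RPKM in A10-FMT. HS livers held 1.05, 2.42 and 1.49 RPKM. Con, A10 and HS+A10 together lay between 0.330 and 0.800 RPKM, below every HS library. Con-FMT replicates 1 and 2 were the highest of the series, and Con-FMT replicate 3 was below HS replicate 2.

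Egr1 (chr18:34859823-34864984), the zinc-finger factor that responds to growth factor and MAPK signals, had the widest range, from 0.390 to 79.4 RPKM, which is 204-fold. It was at 8.50, 6.35 and 7.10 RPKM in Con, at 3.70, 3.21 and 4.13 RPKM in A10 and at 1.83, 2.21 and 5.27 RPKM in HS. The 3 HS+A10 libraries were the lowest of the series, at 0.390, 0.870 and 0.940 RPKM. In Con-FMT it was at 19.0, 17.96 and 10.5 RPKM, above every library without transfer. In A10-FMT replicates 1 and 2 it was at 3.13 and 2.75 RPKM, and in replicate 3 at 79.4 RPKM.

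Klf6 (chr13:5861482-5870394), a Krüppel-like zinc-finger factor known from liver injury, was at 2.49, 3.05 and 2.73 RPKM in Con-FMT and at 1.27, 1.16 and 1.21 RPKM in A10-FMT. The 3 Con-FMT libraries were the highest of the 18. A10-FMT replicate 3 was not the highest of its group here, nor was it for Myc. HS livers held 1.28, 1.97 and 2.15 RPKM, and the Con group 1.63, 1.35 and 1.58 RPKM. Myc (chr15:61985391-61990374) was highest in Con-FMT replicate 1, at 14.6 RPKM, with 3.75 and 3.28 RPKM in the other Con-FMT libraries. In A10-FMT it was at 8.34, 1.16 and 6.72 RPKM, and the ranges of all neighbouring groups in the order of means overlapped. Ier2 (chr8:84661331-84662852), a small nuclear protein induced by serum, ranged from 12.6 to 39.4 RPKM, and its neighbouring groups overlapped throughout.

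**Figure D1:**
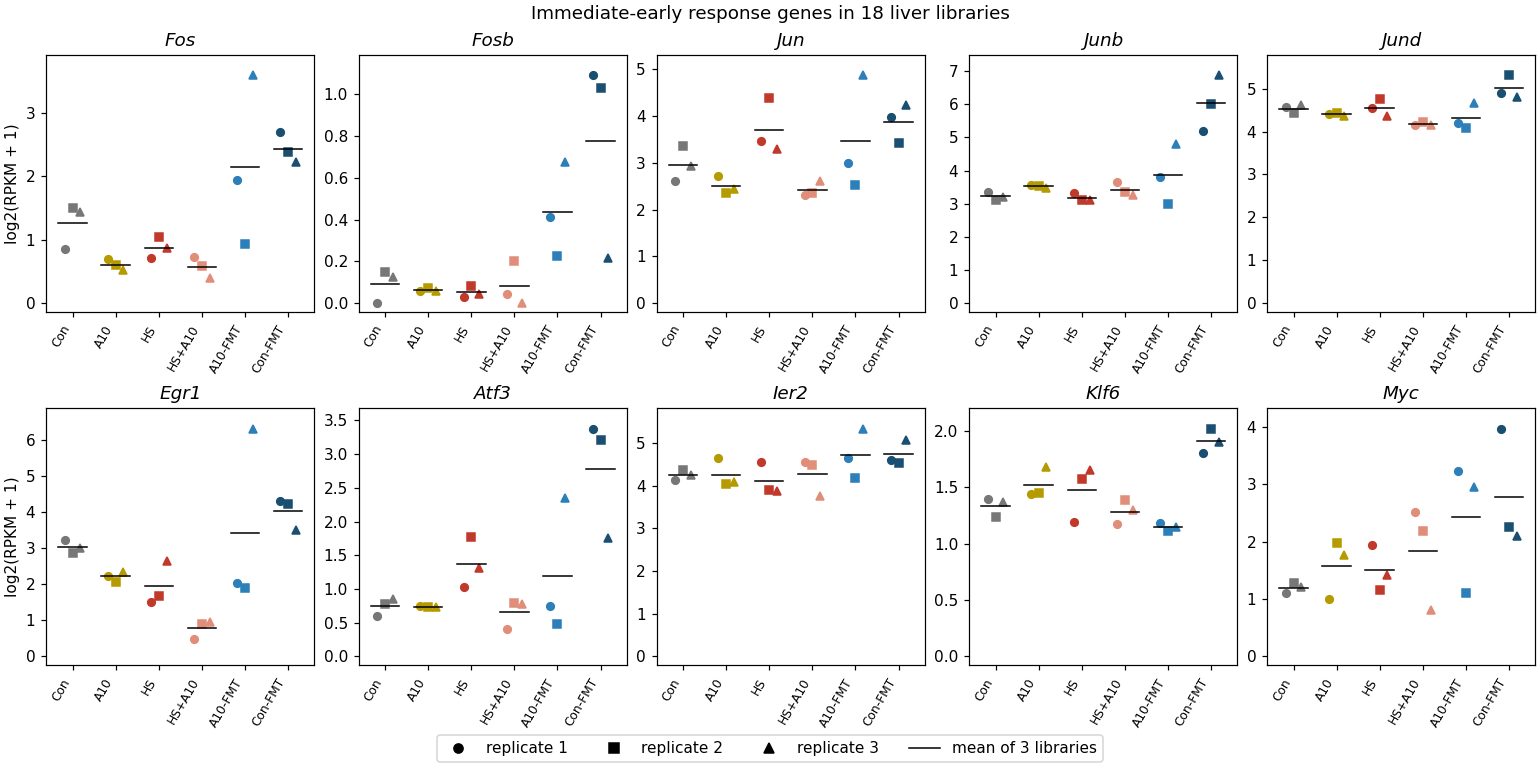
Each panel plots 1 member, with log2(RPKM + 1) on the vertical axis and the 6 groups on the horizontal axis. Symbols are replicates 1, 2 and 3 and bars are the means of 3 libraries. The 3 Con-FMT libraries were the highest for Junb (35.5 to 116 RPKM), Jund and Klf6, and A10-FMT replicate 3 was far above the rest of its group for Egr1 (79.4 RPKM), Fos and Jun.

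The 9 tested members moved together over the 18 libraries to different degrees. Pearson correlations of log2(RPKM + 1) between pairs of members, given as a description over libraries that share groups, ran from -0.01 for Ier2 and Klf6 to 0.87 for Egr1 and Fos. Jund and Atf3 stood at 0.84, Jun and Fos at 0.77 and Fos and Atf3 at 0.76. A10-FMT replicate 3 weighed on several of these pairs. Against the mean of the other 2 libraries of its group it held 27.0 times the Egr1 level, 7.65 times the Atf3 level, 5.93 times the Fos level, 4.80 times the Jun level and 2.70 times the Junb level. For Ier2 it held 1.92 times the level and for Jund 1.46 times, and for Klf6 it held 0.996 times.

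A10-FMT livers were compared with Con-FMT livers to ask how donor treatment with AOS bears on the recipient liver. Junb, Jund, Klf6 and Atf3 were lower in A10-FMT, and no member was higher. Changes are given as differences in mean log2(RPKM + 1), tested with limma over all 18 libraries with Benjamini-Hochberg adjustment over the 10204 genes. Calls are adjusted p-values under 0.05. Junb fell by 2.17 (SE 0.38, adjusted p = 0.0012), from a mean of 71.7 ± 40.7 (SD, n = 3) to 15.5 ± 10.1 RPKM (SD, n = 3). Klf6 fell by 0.76 (SE 0.11, adjusted p = 5.4e-04), Jund by 0.69 (SE 0.15, adjusted p = 0.0043) and Atf3 by 1.59 (SE 0.42, adjusted p = 0.017). The 4 called of 9 compare with 12.0% of all tested genes called lower and 6.72% called higher, 18.8% in all. All 9 changes were negative, with a median of -0.60 against -0.03 over all tested genes.

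The other 5 members were not called. Egr1 changed by -0.60 (95% confidence interval -2.27 to 1.06), Fos by -0.28 (-1.19 to 0.63), Jun by -0.42 (-1.36 to 0.53), Myc by -0.34 (-1.55 to 0.86) and Ier2 by -0.02 (-0.62 to 0.58). Without A10-FMT replicate 3, 7 members were called lower, with Egr1 at -2.05 (adjusted p = 6.4e-04), Fos at -1.002 (adjusted p = 0.016) and Jun at -1.12 (adjusted p = 0.024) added to the other 4. With 1 library of these groups left out, 1176 to 1638 of the 10204 tested genes were called in both directions, against 1914 with all libraries. Junb, Klf6 and Jund kept their call whichever library of the 2 groups was left out. In a fit of these 2 groups alone, however, Klf6 was the 1 member called (adjusted p = 0.010), with Junb at 0.055 and Jund at 0.071. That fit called 685 of the 10204 tested genes. Atf3 lost its call without A10-FMT replicate 1 or 2 or Con-FMT replicate 1 or 2, at adjusted p from 0.063 to 0.086. For Junb, Klf6 and Jund the 2 groups did not overlap, as for 19.4% of tested genes in that direction, and an exact permutation test (two-sided) between the 3 and 3 libraries gave p = 0.1, the smallest it can give.

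Con-FMT livers were compared with HS livers to see what transfer from control donors went with. All 9 tested members were higher in Con-FMT on average, and Junb, Fos, Atf3, Jund and Klf6 were called. Junb rose by 2.84 (SE 0.38, adjusted p = 1.7e-04), from 8.12 ± 0.804 RPKM in HS (SD, n = 3). Fos rose by 1.56 (SE 0.43, adjusted p = 0.016), from 0.843 ± 0.216 to 4.47 ± 0.940 RPKM (SD, n = 3 each). Atf3 rose by 1.41 (SE 0.42, adjusted p = 0.025), Jund by 0.46 (SE 0.15, adjusted p = 0.033) and Klf6 by 0.44 (SE 0.11, adjusted p = 0.013). The 5 of 9 called stand against 4.61% of tested genes called higher and 19.0% called lower, 23.6% in all, and the members' median was 1.27 against -0.12 over all tested genes.

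Egr1 was 2.09 higher in Con-FMT than in HS (95% confidence interval 0.42 to 3.75) at an adjusted p of 0.065. In the fit of these 2 groups alone Egr1 was called (adjusted p = 0.023) with Junb and Fos, 3 members in all. That fit called 798 of the 10204 tested genes, against 2413 with all libraries. Over all libraries, Myc differed by 1.27 and Ier2 by 0.63, each with an adjusted p of 0.12, and Jun by 0.17 (-0.78 to 1.11). For Myc, Egr1, Jund, Klf6, Fos and Junb, 6 of the 9, the Con-FMT libraries were all above the HS libraries, against 7.11% of tested genes, and none had them all below, against 27.9%. Only Junb among the 5 called members kept its call with each of the 6 libraries left out in turn (adjusted p at most 9.9e-04). Between 2 and 5 members were called in these fits, and 1755 to 2276 of all tested genes in both directions. Without HS replicate 1 or Con-FMT replicate 2, 2 members were called, and without HS replicate 3 or Con-FMT replicate 1, 3 members were called. Without Con replicate 3 and A10 replicate 3, 4 members were called, and Jund was not (adjusted p = 0.055). Without Con-FMT replicate 3, the library with pancreatic mRNA, 5 members were called and Junb stood at 2.42 (adjusted p = 5.8e-04). Fosb, tested in a fit without the filter on low values, was 0.73 higher in Con-FMT than in HS (SE 0.17, adjusted p = 0.013).

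A10-FMT livers were compared with HS livers, the comparison for transfer from AOS-dosed donors. Fos was the member called, with a rise of 1.28 (SE 0.43, adjusted p = 0.042). That is 1 of 9, against 2.09% of tested genes called higher and 21.0% called lower, 23.1% in all. No member that passed the filter had all A10-FMT libraries above all HS libraries, against 4.59% of tested genes, while Fosb did. In the fit without the filter on low values, Fosb was 0.39 higher in A10-FMT (SE 0.17, adjusted p = 0.16) and not called. The call of Fos did not hold without A10-FMT replicate 3, where Fos differed by 0.56 (adjusted p = 0.16), nor without A10-FMT replicate 1 (adjusted p = 0.052) or any 1 of the 3 HS libraries (0.074 to 0.093), and no member was called without Con replicate 3 and A10 replicate 3. Klf6 was lower by 0.33 at an adjusted p of 0.051, with every A10-FMT library below every HS library, as for 32.8% of tested genes.

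The size of the change in this comparison moved with A10-FMT replicate 3 for other members as well. Egr1 differed from HS by 1.48 with it and by 0.03 without it. Jun differed by -0.25 with it and by -0.95 without it (adjusted p = 0.056), Atf3 by -0.18 and -0.76 (adjusted p = 0.16) and Jund by -0.24 and -0.41 (adjusted p = 0.057). The median over the 9 members was 0.62 with it, against -0.16 over all tested genes. With Con-FMT replicate 3 left out too, which leaves 16 libraries, Jun, Jund and Atf3 were called lower and Fos was not called. In that fit 1460 of the 10204 tested genes were called in both directions, against 2358 with all libraries.

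**Figure D2:**
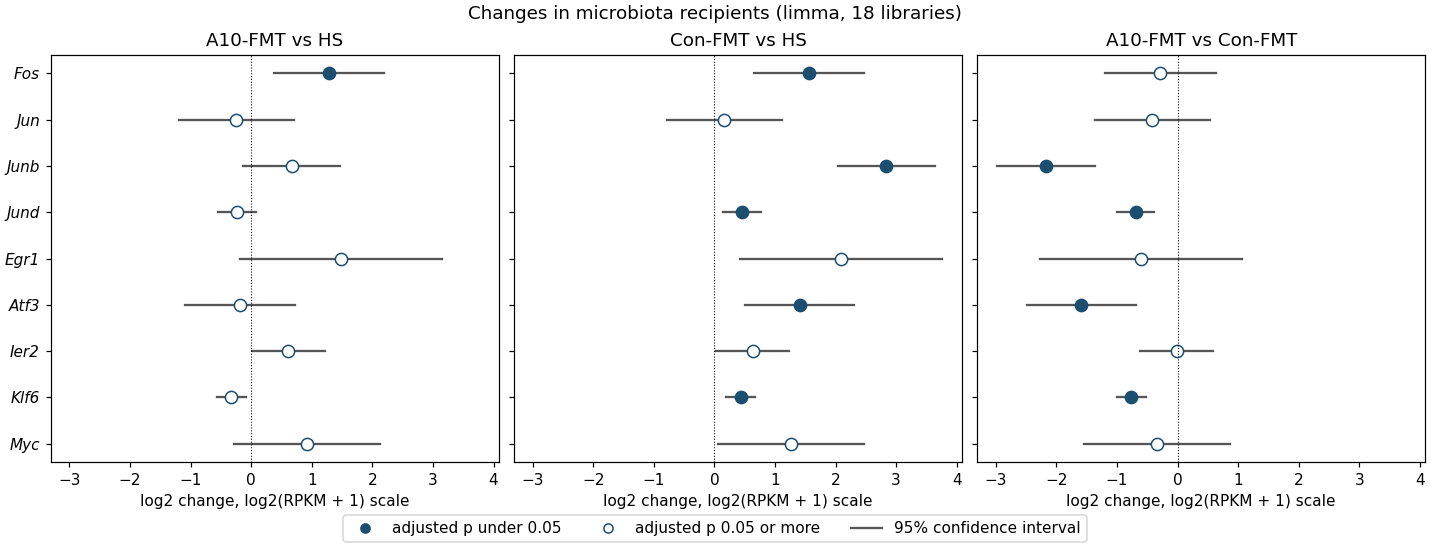
Changes of the 9 tested members are plotted as differences in mean log2(RPKM + 1) (horizontal axis) with 95% confidence intervals as lines, for A10-FMT against HS, Con-FMT against HS and A10-FMT against Con-FMT. Filled circles are adjusted p under 0.05. Of these, 1 lies above 0 in the left panel (Fos), 5 in the middle panel and 4 lie below 0 in the right panel, with Junb farthest from 0 at 2.84 and -2.17.

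**Figure D3:**
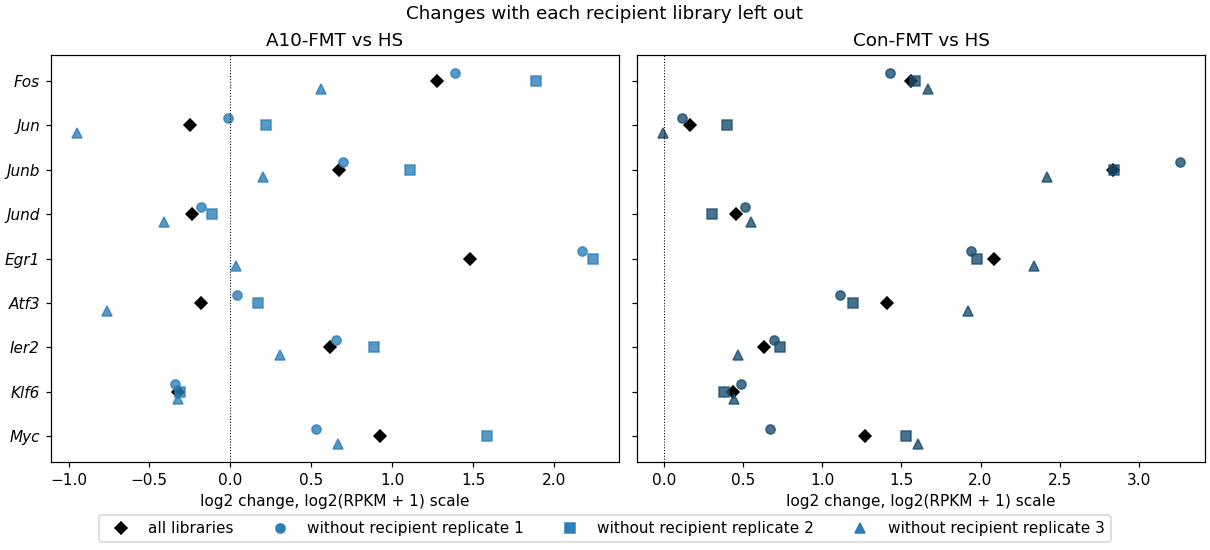
Diamonds give the change over all libraries and the other symbols the change with recipient replicate 1, 2 or 3 left out, on the log2(RPKM + 1) scale. In A10-FMT against HS, Egr1 moved from 1.48 to 0.03 and Fos from 1.28 to 0.56 without replicate 3, whereas in Con-FMT against HS Junb stayed between 2.42 and 3.26.

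In a comparison added after the values were seen, Con-FMT was set against Con livers. Junb (2.80, SE 0.38, adjusted p = 9.9e-05), Atf3 (2.04, SE 0.42, adjusted p = 0.0025), Klf6 (0.58, SE 0.11, adjusted p = 0.0019) and Jund (0.47, SE 0.15, adjusted p = 0.027) were called higher, 4 of 9 against 14.4% of tested genes called higher and 11.5% lower, 25.8% in all. The groups did not overlap for any of the 9 tested members, with Con-FMT above, against 22.5% of tested genes. Jund lost its call without Con replicate 1 or 2 or Con-FMT replicate 2 (adjusted p from 0.055 to 0.12), and also with quantile normalization (0.098), median scaling (0.082), only the compared groups (0.061) and without Con replicate 3 and A10 replicate 3 (0.062), where 3 members were called. The other 3 kept their call with any of the 6 libraries left out. Con-FMT and A10-FMT were both compared with HS, and Con-FMT enters 3 of these comparisons, so their results are not independent of each other.

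HS was compared with Con for the effect of diet and STZ. No member was called by limma, and none had an unadjusted p under 0.05, in a comparison in which 17.7% of tested genes were called, 15.9% higher and 1.87% lower. Jun was 0.75 higher in HS (95% confidence interval -0.20 to 1.70, adjusted p = 0.24) and Atf3 0.63 higher (-0.27 to 1.53, adjusted p = 0.30). Egr1 was 1.10 lower (-2.77 to 0.56, adjusted p = 0.33). For Atf3 the 2 groups did not overlap, with HS above, as for 32.6% of tested genes, and for Egr1 with HS below, as for 4.17%. A10-FMT replicate 3 and Con-FMT replicate 3 are in neither group, and leaving them out was chosen after seeing the data. Without them Egr1 (adjusted p = 0.0079) and Atf3 (adjusted p = 0.017) were called at the same changes. Only the estimate of the spread differed in that fit, so these calls add no new evidence on HS and Con livers. The count of all genes called in that fit is not reported here. Over all settings other than 1 library left out, it among them, 566 to 2016 genes were called, against 1809 in the main fit. Fos, Junb, Jund, Ier2, Klf6 and Myc differed by between -0.39 and 0.31.

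A10 was compared with Con for AOS alone. No member was called by limma and none had an unadjusted p under 0.05, and 0.0686% of tested genes were called, 0.0490% higher and 0.0196% lower. The members' changes ran from -0.83 for Egr1 (95% confidence interval -2.49 to 0.84) to 0.39 for Myc (-0.82 to 1.59). All A10 libraries were below all Con libraries for Egr1, Fos and Jund, as for 5.27% of tested genes, and above them for Junb and Klf6, as for 19.6%. In the fit of these 2 groups alone Egr1 was called lower (adjusted p = 0.049), against an adjusted p of 0.67 with all libraries. That fit called 38 of all tested genes, against 7 with all libraries. Its spread comes from Con and A10 alone. In these groups replicate 3 lay between the other libraries for 98.6% and 96.3% of the genes on which those differed. The spread may thus be understated, and whether these libraries are independent was not tested.

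HS+A10 was compared with HS for AOS given under diet and STZ. No member was called by limma at an adjusted p under 0.05, against 7.32% of tested genes (2.95% higher and 4.37% lower), and 2 members had an unadjusted p under 0.05. These were Jun, at -1.29 (SE 0.45, adjusted p = 0.088), from 12.9 ± 6.02 to 4.38 ± 0.633 RPKM (SD, n = 3 each), and Jund, at -0.38 (SE 0.15, adjusted p = 0.12). Egr1 stood at -1.17 (95% confidence interval -2.83 to 0.50) and Atf3 at -0.71 (-1.61 to 0.19). HS+A10 was below HS in all libraries for Jun, Jund, Egr1 and Atf3, as for 15.7% of tested genes. Between these groups endothelial markers summed to 82.7 to 102 RPKM in HS+A10 and 65.2 to 72.4 RPKM in HS. Of these, 7 of 8 were higher without overlap, beside 11.6% of tested genes. Erythroid markers summed to 2630 to 3299 RPKM in HS+A10 and 4226 to 10270 RPKM in HS, with 4 of 5 lower without overlap, beside 15.7%. Hepatocyte markers also summed higher in HS+A10 and lymphocyte markers lower (1.44 to 1.85 RPKM against 2.44 to 2.71 RPKM), and the part of these lists was not tested. A10-FMT replicate 3 and Con-FMT replicate 3 are in neither group, and leaving them out was chosen after seeing the data. Without them Jun (adjusted p = 0.013), Egr1 (adjusted p = 0.011) and Atf3 (adjusted p = 0.019) were called lower at the same changes. Only the estimate of the spread differed in that fit. The count of all genes called in that fit is not reported here. Over all settings other than 1 library left out, it among them, 57 to 1053 genes were called, against 747 in the main fit. Against Con, a comparison added after the values were seen, Egr1 was 2.27 lower in HS+A10 (SE 0.78, adjusted p = 0.038), and it was the 1 member called, against 31.5% of tested genes (23.5% higher and 7.93% lower). That call was lost with any of the 6 libraries left out (adjusted p from 0.065 to 0.10). The difference between the effect of HS with AOS and that without it was not called for any member, against 0.00980% of tested genes, and Klf6 came nearest at -0.38 (SE 0.16, adjusted p = 0.34).

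Some other measures moved with the recipient comparisons. Dbp, a clock-controlled gene with a strong daily rhythm in liver, chosen after its values were seen, was at 0.360 to 3.41 RPKM in Con, A10 and HS and at 47.3 to 98.8 RPKM in HS+A10, A10-FMT and Con-FMT. Dbp thus separates HS+A10 and both recipient groups from HS and from Con. It does not separate the recipient groups from each other, since A10-FMT held 48.8 to 98.8 RPKM and Con-FMT 51.8 to 55.5 RPKM. Its part in the comparisons with HS and Con was not tested. Neutrophil markers summed to 4.62 to 8.28 RPKM in Con-FMT, 1.02 to 2.38 RPKM in A10-FMT and 1.39 to 5.44 RPKM in HS. Of the 6 neutrophil markers, 2 (S100a8 and S100a9) were separate between the recipient groups, and the defining marker Ly6g was at 0 to 0.170 RPKM in HS and both recipient groups. Kupffer cell and macrophage markers summed to 94.0 to 115 RPKM in A10-FMT, 122 to 207 RPKM in Con-FMT and 150 to 239 RPKM in HS, with 8 of 11 markers lower without overlap in A10-FMT than in HS, 4 of 11 lower in A10-FMT than in Con-FMT and none separate between Con-FMT and HS. In A10-FMT against HS, endothelial markers were also lower (46.8 to 60.2 RPKM against 65.2 to 72.4 RPKM, 5 of 8 without overlap), as were erythroid markers (1665 to 2347 RPKM against 4226 to 10270 RPKM, 3 of 5) and lymphocyte markers (1.36 to 2.16 RPKM against 2.44 to 2.71 RPKM, 3 of 7). Stellate cell markers summed to 102 to 122 RPKM in Con-FMT and 130 to 207 RPKM in HS, with 3 of 8 lower without overlap. In A10-FMT 3 of 8 were also lower than in HS without overlap, though the sums, 102.6 to 130.3 RPKM, overlapped those of HS. Beside these counts, 32.8% of all tested genes were lower without overlap in A10-FMT than in HS. The share was 19.4% in A10-FMT against Con-FMT and 27.9% in Con-FMT against HS. No marker of these lists was at 0 in all libraries. Their part in the members' levels was not tested, and in bulk tissue a change in the share of a cell type cannot be told apart from a change in RNA per cell.

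Related genes were taken from 5 lists, and counts are of genes called among those tested. Of all tested genes, the shares called higher and lower were 4.61% and 19.0% in Con-FMT against HS, and 6.72% and 12.0% in A10-FMT against Con-FMT. They were 2.09% and 21.0% in A10-FMT against HS, 15.9% and 1.87% in HS against Con, and 2.95% and 4.37% in HS+A10 against HS. Of 34 other immediate-early genes, 22 were tested. In Con-FMT against HS 11 were higher and 1 lower, with a median of 0.61 against -0.12 over all tested genes. Socs3, the feedback inhibitor of cytokine signalling, rose by 2.35 (SE 0.35, adjusted p = 4.1e-04), from 4.83, 2.31 and 1.75 RPKM in HS to 16.2, 11.5 and 31.9 RPKM in Con-FMT. Btg2, an antiproliferative p53 target, rose by 2.29 (SE 0.35, adjusted p = 4.2e-04), from 3.15, 4.56 and 2.78 RPKM to 20.5, 24.2 and 17.9 RPKM. Zfp36l2, which encodes an mRNA-decay factor, rose by 1.07 (adjusted p = 4.1e-04), and Cyr61, a matricellular protein gene, fell by 0.82 (adjusted p = 0.027). These values place Socs3 and Btg2 with Junb, since no library without control-donor transfer reached the lowest Con-FMT value.

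In A10-FMT against Con-FMT, 7 of the 22 other immediate-early genes were lower and 1 higher, with a median of -0.55 against -0.03. Btg2 fell by 2.42 (adjusted p = 3.5e-04), Socs3 by 2.11 (adjusted p = 0.0010) and Rhob, a small GTPase gene, by 0.80 (adjusted p = 8.6e-04). Cyr61 rose by 1.51 (adjusted p = 8.8e-04), from 4.30, 5.41 and 2.51 RPKM in Con-FMT to 12.0, 12.8 and 14.5 RPKM in A10-FMT. Between A10-FMT and HS, 1 was higher and 3 lower in A10-FMT. Dusp1, a MAPK phosphatase, rose by 1.23 (adjusted p = 0.022) and Ier5 fell by 0.75 (adjusted p = 0.0047), Gadd45b by 0.78 (adjusted p = 0.040) and Btg1 by 0.53 (adjusted p = 0.025). In HS against Con 1 was higher (Rhob) and in HS+A10 against HS 1 was lower, Ier5, by 0.83 (adjusted p = 0.0078). In A10 against Con none of the 5 lists held a called gene.

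Of 13 AP-1 relatives and partners, 8 were tested. In Con-FMT against HS 3 were higher and 1 lower. Maff, a small MAF protein without an activation domain, rose by 2.12 (SE 0.18, adjusted p = 7.3e-06), from 1.52, 1.17 and 1.04 to 7.98, 10.3 and 8.12 RPKM. Fosl2, the FOS relative FRA2, rose by 0.97 (adjusted p = 1.2e-04) and Mafk by 0.52 (adjusted p = 0.032), and Maf fell by 0.69 (adjusted p = 8.7e-04). Between the recipient groups, 3 were lower and 2 higher in A10-FMT. Fosl2 fell by 1.24 (adjusted p = 2.6e-05), from 3.51, 3.91 and 5.77 to a mean of 1.26 ± 0.110 RPKM (SD, n = 3), Maff by 1.08 (adjusted p = 8.6e-04) and Mafk by 0.56 (adjusted p = 0.026), while Atf7 (0.37, adjusted p = 0.018) and Maf (0.38, adjusted p = 0.033) were higher. Fosl2 was therefore separate between the recipient groups in all libraries, A10-FMT replicate 3 included. Relative to HS, A10-FMT livers had Maff at a higher level (1.04, adjusted p = 0.0016). In HS+A10 against HS Maff (1.17, adjusted p = 0.0038) and Maf (0.40, adjusted p = 0.047) were higher. Atf2 was the 1 gene of this list called in HS against Con, at 0.20 (adjusted p = 0.031).

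All 29 genes of upstream MAPK and SRF signalling were tested. In Con-FMT against HS 1 of 29 was higher and 5 of 29 lower, beside 4.61% and 19.0% of all tested genes. The list's median was -0.11, near the -0.12 of all tested genes. Map2k3 (0.26, adjusted p = 0.048) was higher, and Mapk9 (-0.35, adjusted p = 0.010), Rps6ka1 (-0.62, adjusted p = 0.012) and Rps6ka3 (-0.27, adjusted p = 0.021), kinases of the cascade, were lower. A10-FMT had 2 of 29 higher and 4 of 29 lower than Con-FMT, beside 6.72% and 12.0% of all tested genes. Crem, the CRE-binding modulator, fell by 1.16 (adjusted p = 7.3e-04), from 16.4, 21.9 and 13.4 to 5.46, 6.79 and 9.28 RPKM, and the receptor gene Egfr fell by 0.77 (adjusted p = 0.0038). Mkl1, an SRF coactivator gene, fell by 0.38 (adjusted p = 0.011), and Map2k6 (1.03, adjusted p = 0.0031) and Rps6ka1 (0.78, adjusted p = 0.0037) rose. Against HS, A10-FMT had 2 higher, Map2k6 (1.11) and Map2k3 (0.37), and 8 of 29 lower, beside 21.0% of all tested genes, among them Creb1 at -0.34 and Map2k1 at -0.27 (adjusted p = 0.011 for both). In HS against Con 4 of 29 were higher, beside 15.9% of all tested genes. Among them were Mkl1 (0.35, adjusted p = 0.020) and Mapk14 (0.37, adjusted p = 0.023). In HS+A10 against HS Elk3 was higher (0.46, adjusted p = 0.025) and 4 were lower, among them Crem (-0.82, adjusted p = 0.019) and Mkl1 (-0.33, adjusted p = 0.044).

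Of 10 MYC network partners, 8 were tested. In Con-FMT against HS Max, the partner MYC needs to bind DNA, rose by 0.46 (adjusted p = 0.0100), Mnt, which competes with MYC for MAX, by 0.63 (adjusted p = 0.0077) and Mga by 0.37 (adjusted p = 0.027), and Mycl, a MYC relative, fell by 0.74 (adjusted p = 0.011). In A10-FMT against Con-FMT, which uses the same Con-FMT libraries, 2 were higher and 3 lower, with Max at -0.55 (adjusted p = 0.0042), Mnt at -0.65 (adjusted p = 0.0083), Mga at -0.36 (adjusted p = 0.036) and Mycl at 0.62 (adjusted p = 0.030). Mxi1 was also higher there (0.50, adjusted p = 0.0051). In HS against Con Max (0.38, adjusted p = 0.034) and Mycl (0.62, adjusted p = 0.034) were higher, and none of the list was called in the other 3 comparisons.

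All 14 textbook MYC targets were tested, and 2 were higher and 1 lower in Con-FMT against HS. Nop58, a core protein of box C/D snoRNPs in ribosome assembly, rose by 0.66 (SE 0.10, adjusted p = 5.9e-04) and Srm, spermidine synthase, by 0.51 (adjusted p = 0.024), and Tfrc, the transferrin receptor, fell by 0.53 (adjusted p = 0.016). Between the recipient groups, 6 were lower in A10-FMT and none higher, with a median of -0.36. Nop58 fell by 1.16 (SE 0.10, adjusted p = 1.5e-05), from 22.4, 25.4 and 19.3 to 10.5, 9.31 and 8.43 RPKM, Srm by 0.71 (adjusted p = 0.0048) and Eif4e, the cap-binding protein, by 0.39 (adjusted p = 0.0029). Nop58 was separate between the recipient groups in all libraries, unlike Myc itself. Against HS, 6 were lower in A10-FMT, led by Tfrc (-0.81, adjusted p = 0.0020), Nop58 (-0.50) and Nme1 (-0.72, adjusted p = 0.0051). In HS+A10 against HS Tfrc (-0.89, adjusted p = 0.0039) and Nop58 (-0.63, adjusted p = 0.0042) were lower, and in HS against Con Eif4e was higher (0.25, adjusted p = 0.037).

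Of the list genes that the naming rule picked, 17 of 22 kept their call in A10-FMT against Con-FMT with each of the 6 libraries left out in turn, 11 of 19 in Con-FMT against HS, 8 of 14 in A10-FMT against HS, 4 of 9 in HS+A10 against HS and 0 of 8 in HS against Con. Socs3, Btg2, Zfp36l2, Maff, Fosl2, Max, Mnt, Mycl and Nop58 were among those kept in Con-FMT against HS.

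**Figure D4:**
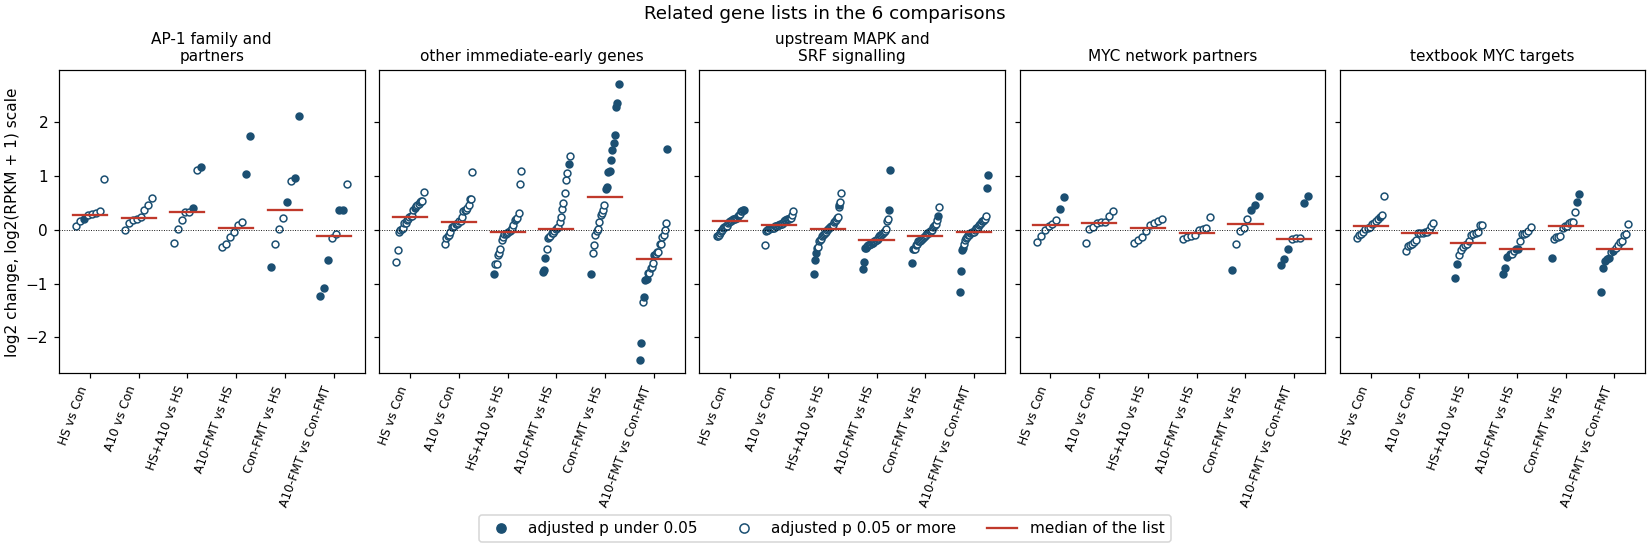
Each panel plots 1 list of related genes, with the 6 comparisons on the horizontal axis and each tested gene's difference in mean log2(RPKM + 1) on the vertical axis. Filled circles are adjusted p under 0.05 and red bars are list medians. The other immediate-early genes reach 2.71 in Con-FMT against HS, with a median of 0.61, and -2.42 in A10-FMT against Con-FMT, with a median of -0.55.

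The genes whose profile over the 18 libraries was most like the mean profile of the 9 tested members were named by Pearson's r on log2(RPKM + 1), as a description of libraries that share groups. Btg2 came closest (r = 0.93), followed by Gm46310 (0.91), Alkbh1 (0.87), Mbd1 (0.87), Trib1 (0.87), Srm (0.86), Pfkfb2 (0.86), Apobec1 (0.85), Arid5b (0.85) and Plk3 (0.85). For Junb the nearest were Cxcl1 (0.94), a neutrophil-attracting chemokine gene, and Slc39a14 (0.94), a zinc and iron transporter gene. Cxcl1 was at 36.7 to 343 RPKM in Con-FMT and at 2.06 to 15.9 RPKM in the other 15 libraries. Slc39a14 was at 69.8 to 104 RPKM in Con-FMT and at 26.0 to 38.9 RPKM elsewhere. For Atf3 the nearest were Rcan1 (0.96) and Tsc22d2 (0.92), for Jund Alkbh1 (0.92) and Apobec1 (0.91), and for Klf6 Swt1 (0.92) and Tfe3 (0.90). For Myc they were Cish (0.88) and Phlda1 (0.84), for Fos Mbd1 (0.84) and Pfkfb3 (0.81), and for Jun Bloc1s4 (0.83) and Gm41844 (0.80). Egr1 had Foxa3 (0.80) and Dnajb1 (0.77), and Ier2 had Csrnp1 (0.77) and Cyp2d40 (0.75).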

How the data were processed

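Liver poly(A) RNA was sequenced in 18 libraries by the authors, who mapped reads to reference genes and deposited RPKM values with 2 decimals. The study's methods name SOAPaligner, whereas the submitters' processing notes name Bowtie 0.12.2 and mm10. RPKM divides by transcript length and library total, so a few abundant transcripts can shift all other values. Read counts, and thus counting intervals, could not be had. The study's test, DEGseq, was replaced because it ignores the spread between replicates.

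Groups were taken from the labels. Values were transformed as log2(RPKM + 1), which understates changes of low genes. A minimum mean of 1 RPKM left 10204 genes, which were fitted with limma 3.58.1 in R 4.3.3 (trend on expression, 1 mean per group, two-sided), with Benjamini-Hochberg adjustment. On simulated data for HS against Con, 89.5% of 200 genes changed by 1 (log2) were recovered among 10204 genes, and 12 unchanged genes were called. The 200 were drawn at random from all tested genes, so this rate does not hold for members with a wide spread. Egr1, with an SE of 0.78 in HS against Con, was not called at -1.10. Single genes also had exact permutation tests in Python 3.11.15. The members and lists were chosen with earlier results of these data known. From each list, up to 3 called genes per direction were named by lowest adjusted p, and the 10 genes most alike the members' mean and the 2 most alike each member. Some genes that this rule picked are not reported here. The table held 26 symbols turned into dates and 3 repeated symbols. Promoters are RefSeq (GRCm38.p6) and gene positions GENCODE on GRCm38. Alternatives were another pseudocount, filters, normalizations, fits, a replicate block, and libraries left out.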

Additional observations from a re-analysis of the deposited data

How the results depend on the processing

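Of the members' log2 changes under the alternatives, 815 kept direction and side of the threshold, 49 lost the call, 21 gained it and 33 reversed, and the cause was not tested. Read depth is unknown, so counting error at low RPKM cannot be given. Members called in A10-FMT against HS were 2 with a pseudocount of 0.1 or no variance trend, and 0 with no filter, a minimum of 5 RPKM, quantile normalization, median scaling, only the compared groups, or without Con replicate 3 and A10 replicate 3. With only the compared groups they were 1 in A10 against Con, 3 in Con-FMT against HS, 1 in A10-FMT against Con-FMT and 3 in HS+A10 against Con. At a minimum of 5 RPKM they were 2 in Con-FMT against HS, A10-FMT against Con-FMT and Con-FMT against Con. Fos, Atf3, Klf6 and Myc had means of 2.12, 2.00, 1.77 and 3.49 RPKM and were not tested at that minimum. They could thus not be called there, and this includes Fos in A10-FMT against HS. Counts of list genes and of all genes at 5 RPKM likewise leave out the genes below it. In HS+A10 against Con the members called were 0 with no filter or without Con replicate 3 and A10 replicate 3, and 2 with quantile normalization or median scaling. Without A10-FMT replicate 3 and Con-FMT replicate 3 (chosen after seeing the data) they were 2 in HS against Con, 3 in HS+A10 against HS, 3 in A10-FMT against HS, 3 in HS+A10 against Con and 7 in Con-FMT against Con. With 1 library left out they ranged from 0 to 1 in HS+A10 against HS and in A10-FMT against HS, 2 to 5 in Con-FMT against HS, 3 to 7 in A10-FMT against Con-FMT, 3 to 5 in Con-FMT against Con and 0 to 0 in HS+A10 against Con.

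Called genes of the 5 related lists were, in HS against Con, 9, then 1 with quantile normalization, median scaling or without Con replicate 3 and A10 replicate 3, 0 with only the compared groups, 14 without A10-FMT replicate 3 and Con-FMT replicate 3, and 1 to 9 with 1 library left out. In HS+A10 against HS they were 10, then 6 with no filter, 5 at 5 RPKM or without Con replicate 3 and A10 replicate 3, 1 with only the compared groups, and 4 to 15. They were 22 in A10-FMT against HS, then 11 at 5 RPKM, 14 with quantile normalization, 12 with median scaling, 9 with only the compared groups, and 11 to 23. In Con-FMT against HS they were 29, then 12 with only the compared groups, and 20 to 31. They were 30 in A10-FMT against Con-FMT, then 18 at 5 RPKM, 12 with only the compared groups, and 20 to 28.

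All called genes were 1809 in HS against Con, then 876 with quantile normalization, 884 with median scaling, 566 with only the compared groups, 697 without Con replicate 3 and A10 replicate 3, and 845 to 1597 with 1 library left out. In A10 against Con they were 7, then 18 with no filter, 38 with only the compared groups, 0 without Con replicate 3 and A10 replicate 3, and 0 to 73. In HS+A10 against HS they were 747, then 57 with only the compared groups, 351 without Con replicate 3 and A10 replicate 3, and 159 to 1239. They were 2358 in A10-FMT against HS, then 1114 with quantile normalization, 1155 with median scaling, 814 with only the compared groups, 1460 without A10-FMT replicate 3 and Con-FMT replicate 3, and 1295 to 2584. In Con-FMT against HS they were 2413, then 1307 at 5 RPKM, 798 with only the compared groups, and 1755 to 2276. They were 1914 in A10-FMT against Con-FMT, then 1229 at 5 RPKM, 685 with only the compared groups, and 1176 to 1638. In Con-FMT against Con they were 1734 at 5 RPKM, 1626 without Con replicate 3 and A10 replicate 3, and 1879 to 2499.

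The 33 reversed changes were uncalled over all libraries. With quantile normalization Jund stood at -0.15 in HS against Con, and Ier2 at -0.072 in A10 against Con and 0.075 in A10-FMT against Con-FMT, and with median scaling these were -0.17, -0.064 and 0.059. Without Con replicate 3 and A10 replicate 3 Atf3 was 0.046 in A10 against Con, and without A10-FMT replicate 3 and Con-FMT replicate 3 Jun was -0.0092 in Con-FMT against HS. With 1 library left out, the changes that reversed ranged from -0.11 to 0.031 for Junb and -0.085 to 0.11 for Jund in HS against Con, -0.077 to 0.045 for Atf3 and -0.18 to 0.12 for Ier2 in A10 against Con, -0.0095 to 0.85 for Myc in HS+A10 against HS, -0.95 to 0.22 for Jun and -0.76 to 0.17 for Atf3 in A10-FMT against HS, and -0.046 to 0.50 for Jun in Con-FMT against HS. Between the recipient groups they ranged from -1.002 to 0.33 for Fos, -1.12 to 0.054 for Jun, -2.05 to 0.16 for Egr1, -0.33 to 0.25 for Ier2 and -0.74 to 0.32 for Myc. With the replicate number as a block the member counts were 0, 0, 0, 1, 5 and 4 in the 6 comparisons, with Klf6 (adjusted p = 0.048) in place of Fos (0.052) in A10-FMT against HS. Of 45 correlations of same-numbered deviations between groups, 12 were above 0.1. Their median was 0.0067, against -0.0073 for different numbers. Whether same-numbered libraries share more than a number cannot be settled from these values.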
